A study of Mus musculus with 2 samples.

Results

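The genes described are 10 that are best known from natural killer (NK) cells and other innate lymphoid cells, read in early progenitors of the mouse thymus. They were taken by symbol from the 27998 genes of the count table, and all 10 were found there with the gene identifier of the GENCODE M21 annotation. Gzma, Gzmb and Nkg7 belong to cytotoxic granules, Cd160 and Cd7 are surface receptors, Tyrobp and Fcer1g are signalling adaptors, and Rora, Zbtb16 and Nfil3 are transcription factors.

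RNA was counted in single thymus cells of C57BL/6 mice that carry a yellow fluorescent reporter in both copies of Bcl11b (genotype yfp/yfp), a regulator that marks commitment to the T lineage. The 5 sorts were a Flt3- Ly6d+ fraction not gated on HSA, a Flt3- Ly6d- HSA- fraction, a Flt3+ HSA+ fraction, a Flt3+ Ly6d- HSA- fraction, and a control sort gated on Kit alone. All 5 sorts were lineage negative, 7AAD- (live) and Kit+, and the 4 gated fractions were also CD25- and negative for the Bcl11b reporter. HSA is the CD24 antigen, Flt3 is a cytokine receptor of early progenitors and Ly6d is a surface antigen of lymphoid cells. How many mice were pooled for a sort, and their age, are not stated in the sources used here. Each sort carried its own antibody hashtag and all were run together as 1 cDNA library with 1 hashtag library, which share 8293 of 8293 cell barcodes.

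The authors assigned 847 cells to Flt3- Ly6d+, 1205 to Flt3- Ly6d- HSA-, 1182 to Flt3+ HSA+, 1412 to Flt3+ Ly6d- HSA- and 3302 to the control. Molecules were counted by unique molecular identifiers (UMIs), and the median per cell ran from 9860 in Flt3- Ly6d- HSA- cells to 21151.5 in Flt3+ HSA+ cells. Each population is 1 sort, so there was no replicate check and no test between populations, and every interval given is a 95% interval that covers counting error only. Levels are UMIs summed over the cells of a sort and scaled to 1000000 UMIs (CPM), a scale on which fewer cells with a gene and less RNA per cell cannot be told apart. Shares of cells were therefore also taken after each cell was thinned at random to 3000 UMIs, since deeper cells show more genes.

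RNA of the gated surface proteins followed the gates. Flt3 stood at 14.2 and 23.8 CPM in the Flt3- Ly6d+ and Flt3- Ly6d- HSA- sorts, against 64.1 and 87.7 CPM in the Flt3+ HSA+ and Flt3+ Ly6d- HSA- sorts. Ly6d reached 431 CPM in the Flt3- Ly6d+ sort and between 11.3 and 17.5 CPM in the other 3 gated sorts. Bcl11b ran from 0.284 to 3.49 CPM over the 4 gated sorts and was at 193 CPM in the control.

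Some cells of the sorts carried markers of other blood cells. A granulocyte class was defined as cells with UMIs of at least 7 of 14 granulocyte precursor genes (such as Mpo and Elane), and a mast cell and basophil class as cells with UMIs of at least 3 of 8 genes (such as Mcpt8, Cma1 and Gata2). No Flt3- Ly6d+ cell fell in either class. The granulocyte class held 99 Flt3- Ly6d- HSA- cells (8.22% of cells and 20.1% of the UMIs of that sort), 27 Flt3+ HSA+ cells, 66 Flt3+ Ly6d- HSA- cells and 45 control cells. The mast cell and basophil class held 26, 4, 4 and 14 cells of the same 4 sorts. Of these, 16, 1, 4 and 6 cells were in the granulocyte class too, so the 2 classes overlap. The main results that lean on these classes are given with and without them. Doublets of 1 sort carry a single hashtag and so go unseen, and no doublet caller was run.

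NK cells, other innate lymphoid cells and T cells descend from shared lymphoid progenitors. Granzymes are serine proteases that are stored in granules with serglycin and enter a target cell through pores of perforin. Tyrobp (DAP12) and Fcer1g (the Fc receptor gamma chain) have no ligand of their own: they pair with receptors in the membrane and recruit Syk-family kinases through their ITAM motifs. Zbtb16 (PLZF) marks innate lymphoid precursors and NKT cells, Rora is needed for group 2 innate lymphoid cells, and Nfil3 is needed for NK cell and innate lymphoid development.

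The granzymes were the members whose levels differed most between sorts, and their promoters are shown for that reason. They are the 250 bases before the RefSeq transcription start in GRCm38.p6, for Gzma at chr13:113100982-113101231 and for Gzmb at chr14:56262335-56262584, both printed 5′ to 3′ along the minus strand on which the genes lie.
Gzma: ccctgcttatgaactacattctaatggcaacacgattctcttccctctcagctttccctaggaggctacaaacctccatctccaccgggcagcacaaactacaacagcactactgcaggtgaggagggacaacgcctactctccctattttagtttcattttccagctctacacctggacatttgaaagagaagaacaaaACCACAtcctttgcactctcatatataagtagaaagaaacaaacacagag
Gzmb: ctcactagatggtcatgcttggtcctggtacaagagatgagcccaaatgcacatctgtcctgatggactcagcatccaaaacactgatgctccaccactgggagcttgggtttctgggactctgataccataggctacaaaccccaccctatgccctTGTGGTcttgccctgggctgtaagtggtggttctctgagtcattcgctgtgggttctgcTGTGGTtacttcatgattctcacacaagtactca
Capitals mark the letters TGTGGT, the core bound by RUNX factors, on either strand (ACCACA on the other strand). Gzma held 1 match, whose first base lies 50 bases before the start, and Gzmb held 2, whose first bases lie 93 and 34 bases before it. Of 32851 promoters of this length, 14.05% held these letters. The PU.1 core GAGGAA, held by 23.3% of promoters, was searched on both strands and was in neither. The same was so for CTTTGA, the core bound by TCF factors and held by 13.8% of promoters, and for AGATAA, the core bound by Gata factors and held by 9.99%. No match overlapped another. Promoters were listed for 7 of the 10 members, and a match is a run of letters, not a bound site.

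Gzma (granzyme A, chr13:113093825-113100981) was mostly found in the control sort. It stood at 4.62 CPM among Flt3- Ly6d+ cells, 0.856 among Flt3- Ly6d- HSA- cells, 0.820 among Flt3+ HSA+ cells and 0.162 among Flt3+ Ly6d- HSA- cells, against 28.3 CPM (27.0 to 29.8) in the control. In the gated sorts 7, 6, 9 and 4 cells held any UMI of it, against 419 control cells (12.7%). One Flt3- Ly6d+ cell held 42 of the 49 Gzma UMIs of its sort, and without that cell the sort stood at 0.659 CPM. After thinning, 5.45% of control cells held Gzma and at most 0.484% of any gated sort.

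Gzmb (granzyme B, chr14:56258838-56262260) split the gated sorts by Flt3. It stood at 5.56 CPM among Flt3- Ly6d+ cells, 8.77 among Flt3- Ly6d- HSA- cells, 0.507 among Flt3+ HSA+ cells, 0.325 among Flt3+ Ly6d- HSA- cells and 9.88 CPM in the control. The intervals of both Flt3- sorts (4.23 to 7.17 and 7.29 to 10.5 CPM) lay above those of both Flt3+ sorts (0.270 to 0.868 and 0.140 to 0.640 CPM). Cells with a UMI were 44 (5.19%), 41 (3.402%), 7, 7 and 195 (5.91%) in the same order.

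The Gzmb RNA of the 2 Flt3- sorts was spread over cells in different ways. In Flt3- Ly6d+ cells 37 of 44 positive cells held a single UMI and the richest held 8. In Flt3- Ly6d- HSA- cells 1 cell held 37 UMIs, and the mast cell and basophil class held 68 of 123 UMIs (55.3%). That class also held 44.6% of the Gzmb UMIs of the control, where the richest cell had 147. Without both classes Gzmb stood at 5.56 CPM among Flt3- Ly6d+ cells, 4.95 among Flt3- Ly6d- HSA- cells, 0.330 among Flt3+ HSA+ cells, 0.362 among Flt3+ Ly6d- HSA- cells and 5.66 CPM in the control.

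Cells with both granzymes were few. At full depth Gzma and Gzmb were found together in 0, 2, 1 and 0 cells of the Flt3- Ly6d+, Flt3- Ly6d- HSA-, Flt3+ HSA+ and Flt3+ Ly6d- HSA- sorts. The product of their shares would give 0.364, 0.204, 0.0533 and 0.0198 cells. In the control 13 cells held both, against 24.7 from that product. The control thus stood below the product, and the Flt3- Ly6d- HSA- and Flt3+ HSA+ sorts stood above it on very few cells. The 21 cells of the mast cell and basophil class that were outside the granulocyte class held Gzma at 918 CPM and Gzmb at 1603 CPM, against 12.3 and 3.59 CPM in the 7690 cells of neither class. Gzma was found in 7 of the 21 cells and Gzmb in 13 of them. Without the richest cell the class stood at 486 CPM of Gzma and 874 CPM of Gzmb.

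Nkg7 (chr7:43437073-43438249), a granule membrane protein of cytotoxic lymphocytes, was present throughout the progenitors. It stood at 358 CPM among Flt3- Ly6d+ cells, 439 among Flt3- Ly6d- HSA- cells, 461 among Flt3+ HSA+ cells, 441 among Flt3+ Ly6d- HSA- cells and 338 CPM in the control. The highest sort was 1.36-fold above the lowest, the smallest spread among the 10 members. Between 91.9% and 98.8% of the cells of each sort held at least 1 Nkg7 UMI, and 58.6% to 72.2% did so after thinning. The granulocyte class stood at 737 CPM, against 370 CPM in cells of neither class, and in 4 of the sorts the cell richest in Nkg7 was of that class.

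**Figure D1:**
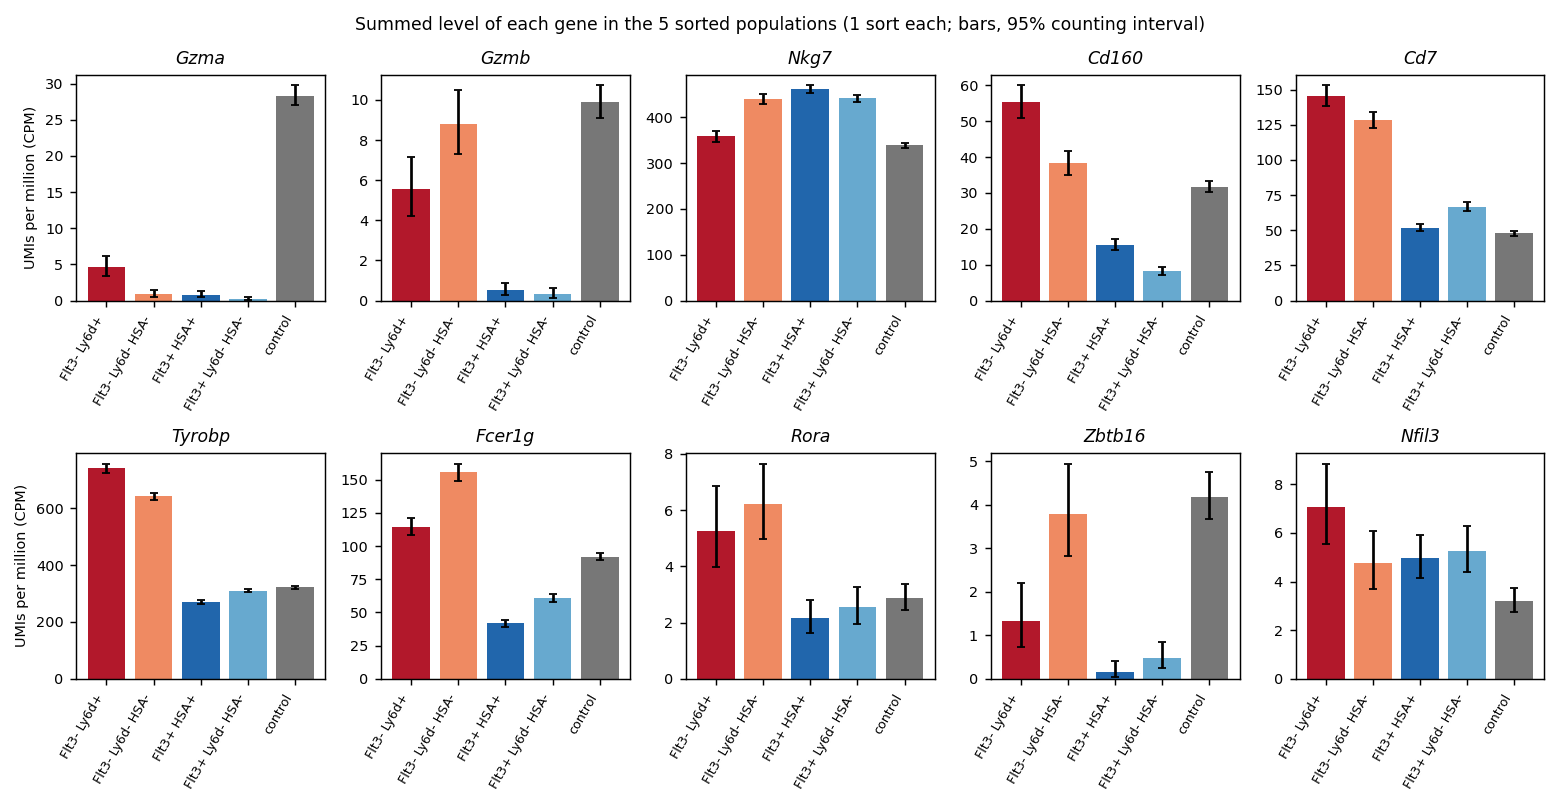
Level of each of the 10 genes in the 5 sorted populations, as CPM with 95% counting intervals, each panel on its own axis from 0. Cd160, Cd7 and Tyrobp stand highest in the 2 Flt3- sorts (55.4, 146 and 740 CPM in Flt3- Ly6d+ cells), Gzma stands highest in the control (28.3 CPM), and Nkg7 is within 338 to 461 CPM in all 5.

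Cd160 (chr3:96798763-96829351), a glycolipid-anchored receptor of NK cells and intestinal lymphocytes that binds the herpesvirus entry mediator, was highest in the Flt3- sorts. It stood at 55.4 CPM among Flt3- Ly6d+ cells, 38.3 among Flt3- Ly6d- HSA- cells, 15.5 among Flt3+ HSA+ cells, 8.24 among Flt3+ Ly6d- HSA- cells and 31.8 CPM in the control. Ranked by level, no neighbouring sorts had overlapping intervals, which among the members was so for Cd160 and Fcer1g. After thinning it was detected in 15.98%, 11.5%, 4.34%, 2.06% and 8.68% of cells in the same order of sorts. The RNA was thinly spread, with at most 10 UMIs in any cell, and the granulocyte class held it in 1.27% of its thinned cells at 3.30 CPM.

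Cd7 (chr11:121036747-121039418), an immunoglobulin-family receptor of T and NK cells, was also highest in the Flt3- sorts. It stood at 146 CPM among Flt3- Ly6d+ cells, 128 among Flt3- Ly6d- HSA- cells, 51.9 among Flt3+ HSA+ cells, 66.7 among Flt3+ Ly6d- HSA- cells and 47.9 CPM in the control. About the same shares of thinned cells held it in the 2 Flt3- sorts (32.8% and 33.7%), against 16.4% and 20.5% in the 2 Flt3+ sorts and 15.2% in the control. In the granulocyte class 1 of 237 thinned cells (0.422%) held Cd7, while 21.5% of thinned cells of neither class did. Before thinning the median was 34556 UMIs per cell in that class and 14391.5 in cells of neither class. The part of RNA free in the droplets in these shares was not tested.

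The 3 listed partner genes of these receptors were scarce in the same cells, and other partners were not looked up. Tnfrsf14, the herpesvirus entry mediator, did not pass 0.546 CPM in any sort. Sectm1a reached 0.0390 CPM in Flt3+ HSA+ cells and was at 0 elsewhere, and Sectm1b, a mouse homologue of the human CD7 ligand, had 0 UMIs in all 5 sorts.

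Tyrobp (chr7:30413760-30417585) was found in most cells and was again highest in the 2 Flt3- sorts. It stood at 740 CPM among Flt3- Ly6d+ cells, 641 among Flt3- Ly6d- HSA- cells, 269 among Flt3+ HSA+ cells, 310 among Flt3+ Ly6d- HSA- cells and 322 CPM in the control. Thinned to equal depth, 82.2% and 77.8% of cells of the 2 Flt3- sorts held it, against 47.7% and 50.2% of the 2 Flt3+ sorts and 49.2% of the control. Without both classes the 5 levels were 740, 663, 258, 278 and 319 CPM in that order.

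Fcer1g (chr1:171229572-171234365) depended more on the granulocyte class. It stood at 115 CPM among Flt3- Ly6d+ cells, 156 among Flt3- Ly6d- HSA- cells, 41.8 among Flt3+ HSA+ cells, 60.9 among Flt3+ Ly6d- HSA- cells and 92.0 CPM in the control. The granulocyte class held 47.0% of its UMIs in the Flt3- Ly6d- HSA- sort, 30.4% in the Flt3+ HSA+ sort and 57.7% in the Flt3+ Ly6d- HSA- sort. Without both classes the levels were 115, 96.9, 29.8, 28.7 and 85.9 CPM in the same order of sorts, so that the Flt3- Ly6d+ sort stood highest and the 2 Flt3+ sorts stood close together.

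Of 17 listed receptors that use these adaptors, directly or through a partner chain, 6 reached 5 CPM in some sort. Klrd1 (CD94, an NK receptor chain) stood at 20.2 CPM among Flt3- Ly6d+ cells, 24.0 among Flt3- Ly6d- HSA- cells, 11.7 among Flt3+ HSA+ cells, 20.8 among Flt3+ Ly6d- HSA- cells and 5.86 CPM in the control. Its usual partner chains Klrc1 and Klrc2 had UMIs in Flt3- Ly6d- HSA- cells, at 0.357 and 0.785 CPM, and were at 0 in the other 4 sorts. Syk, the kinase that binds the ITAM of both adaptors, stood at 66.4, 56.4, 42.9, 41.9 and 44.6 CPM in the usual order of sorts, while Zap70 reached at most 3.27 CPM, in the control.

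The 3 transcription factors were rare in every sort. Rora (chr9:68653786-69388246) stood at 5.28 CPM among Flt3- Ly6d+ cells, 6.21 among Flt3- Ly6d- HSA- cells, 2.15 among Flt3+ HSA+ cells, 2.56 among Flt3+ Ly6d- HSA- cells and 2.88 CPM in the control. Between 3.90% and 5.67% of cells held a UMI of it, mostly a single one, and 1 Flt3- Ly6d- HSA- cell held 25 of the 87 UMIs of its sort.

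Zbtb16 (chr9:48654297-48836222) stood at 1.32 CPM among Flt3- Ly6d+ cells, 3.78 among Flt3- Ly6d- HSA- cells, 0.156 among Flt3+ HSA+ cells, 0.487 among Flt3+ Ly6d- HSA- cells and 4.18 CPM in the control. All 12 of its UMIs in Flt3+ Ly6d- HSA- cells, and 21 of its 53 in Flt3- Ly6d- HSA- cells, lay in the granulocyte class. Without both classes it stood at 1.32 and 2.70 CPM in the 2 Flt3- sorts, 0.0825 CPM in Flt3+ HSA+ cells, 0 UMIs in Flt3+ Ly6d- HSA- cells and 4.08 CPM in the control.

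Nfil3 (chr13:52967209-52981073) showed no order that its intervals could resolve among neighbours. It stood at 7.06 CPM among Flt3- Ly6d+ cells, 4.78 among Flt3- Ly6d- HSA- cells, 4.96 among Flt3+ HSA+ cells, 5.28 among Flt3+ Ly6d- HSA- cells and 3.22 CPM in the control. The granulocyte class held 46.3% of its UMIs in the Flt3- Ly6d- HSA- sort, and without both classes that sort stood at 3.24 CPM.

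**Figure D2:**
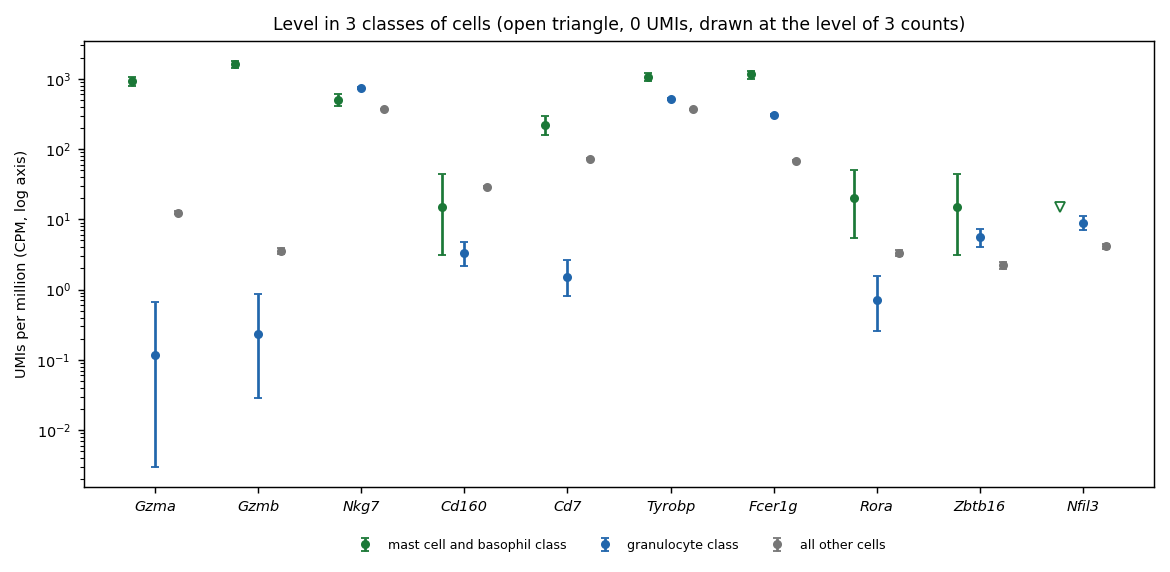
Level of each gene in the mast cell and basophil class, the granulocyte class (237 cells) and all other assigned cells (7690). Values are CPM on a log axis with 95% counting intervals. The mast cell and basophil class is drawn here only by its 21 cells outside the granulocyte class. Gzma and Gzmb stand at 918 and 1603 CPM in the mast cell and basophil class, while Cd7 stands at 1.53 CPM in the granulocyte class.

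The sorts that differ in Flt3 but share the Ly6d- HSA- gate were then compared gene by gene. A gene was measured when it reached 5 CPM in either sort and called when the 2 levels were at least 2-fold apart. Of 9210 genes measured, 1.19% were higher in Flt3- Ly6d- HSA- cells and 2.18% were lower. Of the 10 members 8 were measured, and 5 were higher and 0 lower in Flt3- Ly6d- HSA- cells. The median log2 ratio was 1.32 over the 10 members and 0.03 over all genes measured. The former takes in Gzma and Zbtb16, which were under 5 CPM and so not measured, at log2 ratios of 2.40 and 2.96. The 2 medians thus rest on unlike filters.

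The 5 called members came from 4 of the roles. Gzmb was 27.0-fold higher in Flt3- Ly6d- HSA- cells (13.3 to 64.0), Cd160 4.65-fold (3.95 to 5.49), Fcer1g 2.55-fold (2.39 to 2.73), Rora 2.43-fold (1.73 to 3.41) and Tyrobp 2.07-fold (2.004 to 2.13). The ratio of Cd7 was 1.92 (1.80 to 2.06), just under the threshold, and that of Nkg7 was 0.995 (0.964 to 1.03). Gzma and Zbtb16 stayed under 5 CPM in both sorts.

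The other cell classes moved several of these ratios, and their part in the result was measured by leaving them out. Without the granulocyte class Fcer1g was 3.60-fold and Cd7 2.16-fold higher in Flt3- Ly6d- HSA- cells. Without the mast cell and basophil class Gzmb was 12.5-fold higher, at 4.09 CPM in Flt3- Ly6d- HSA- cells, a level under the 5 CPM needed for a call. The summed level of the 14 granulocyte genes was 4471 CPM in Flt3- Ly6d- HSA- cells and 3158 CPM in Flt3+ Ly6d- HSA- cells, and that of the 8 mast cell and basophil genes was 89.5 and 19.4 CPM. Without both classes the ratios of Cd160 and Tyrobp were 5.42 and 2.39. The call of Rora rested on 1 cell: without the richest cell of each sort its log2 ratio was 0.84, and 4 members were called higher.

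**Figure D3:**
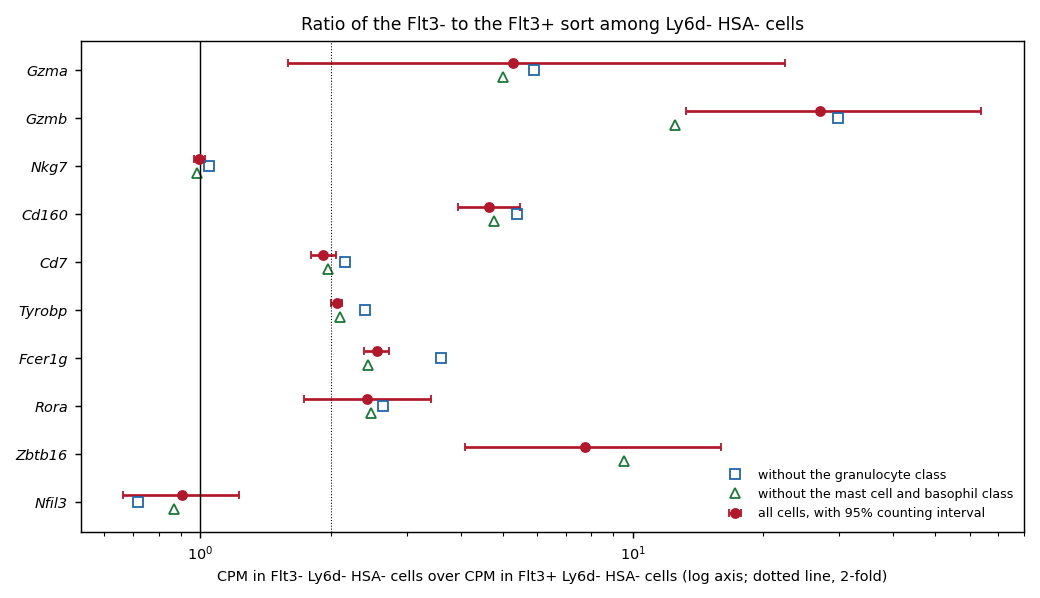
Ratio of the level in Flt3- Ly6d- HSA- cells to that in Flt3+ Ly6d- HSA- cells for each gene, on a log axis, for all cells (with 95% counting intervals) and without each class. Nkg7 sits at 0.995 and Gzmb at 27.0, or 12.5 without the mast cell and basophil class; Zbtb16 has no value without the granulocyte class, since no UMI was left in Flt3+ Ly6d- HSA- cells.

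Genes that act with the members were read from lists of their pathways. Of 13 granule pathway genes 8 were measured, and 0 were called in either direction. Srgn (serglycin, the granule proteoglycan) was at 1111 CPM among Flt3- Ly6d- HSA- cells and 911 CPM among Flt3+ Ly6d- HSA- cells, and Prf1 (perforin) at 0 UMIs and 0.528 CPM. Of 6 adaptor receptors measured, Clec4e was 2.26-fold and Klrk1 (NKG2D) 9.86-fold higher in Flt3- Ly6d- HSA- cells. The call of Klrk1 rested on 5 cells with several NK markers, described last, and leaving those out gave 1.07 CPM among Flt3- Ly6d- HSA- cells and 0.528 CPM among Flt3+ Ly6d- HSA- cells. Of 8 measured regulators of innate lymphoid cells, Tcf7 (4.03-fold) and Ikzf2 (2.78-fold) were higher, while Id2 stood at 27.1 and 17.5 CPM. Of the cell type markers, Cebpe, Cebpa, Mcpt8, Hdc, Gata2, Cma1, Il17rb and Il2ra were at least 2-fold higher in Flt3- Ly6d- HSA- cells, and S100a8 and Thy1 were lower. Without both classes, and with no 5 CPM filter, Cebpe (1.99), Hdc (1.36) and S100a8 (0.994) were less than 2-fold apart. Cebpa, Mcpt8, Gata2, Il17rb, Il2ra and Thy1 kept their calls by fold, and Cma1 gave no ratio.

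Within Flt3+ cells the HSA+ sort was set against the Ly6d- HSA- sort. Of 9066 genes measured, 0.331% were at least 2-fold higher in Flt3+ HSA+ cells and 0.165% lower, and of the 6 members measured 0 were higher and 0 lower, a count that such small shares leave uninformative. The widest ratio among them was that of Cd160, 1.88 (1.59 to 2.24) over Flt3+ Ly6d- HSA- cells. Gzma, under 5 CPM in both sorts, had a ratio of 5.05 (1.70 to 20.2). Fcer1g had a ratio of 0.687 over all cells and 1.07 without the granulocyte class. None of the 8 measured granule pathway genes, 5 adaptor receptors, 7 kinases and related chains or 8 innate lymphoid regulators was called. Of the cell type markers, the granulocyte genes S100a8, S100a9 and Fcnb and the dendritic cell genes Cd74 and H2-Aa were higher in Flt3+ HSA+ cells. Without both classes the ratio of S100a8, taken with no 5 CPM filter, was 0.760, on the other side of 1. S100a9 and Fcnb gave no ratio. Cd74 and H2-Aa were then at 5.65 and 26.9.

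Within Flt3- cells the Ly6d+ sort was set against the Ly6d- HSA- sort. Of 9178 genes measured, 0.36% were at least 2-fold higher in Flt3- Ly6d+ cells and 1.04% lower, and of the 8 members measured 0 were higher and 0 lower, again uninformative beside such small shares. Gzma and Zbtb16, under 5 CPM in both sorts, had the widest ratios, 5.39 (2.83 to 11.1) and 0.349 (0.179 to 0.638), and that of Gzma rested on the 1 cell with 42 UMIs. Cd160 had a ratio of 1.45 (1.28 to 1.63), Nfil3 1.48 (1.05 to 2.09), Gzmb 0.633 (0.456 to 0.871) and Fcer1g 0.737 (0.687 to 0.791). Without the granulocyte class, which is absent from the Flt3- Ly6d+ sort, Nfil3 had a ratio of 2.20 and Fcer1g of 1.11. Without the mast cell and basophil class the ratio of Gzmb was 1.36, on the other side of 1.

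The receptors that pair with the adaptors were called where the adaptors were not. Of 6 measured receptors 4 were at least 2-fold lower in Flt3- Ly6d+ cells. Fcgr3, an Fc receptor that signals through Fcer1g, stood at 16.9 CPM in Flt3- Ly6d+ cells and 45.8 CPM in Flt3- Ly6d- HSA- cells, and its ratio was 1.13 without both classes. With these left out, Fcgr3 was at 16.9, 14.9, 1.86, 1.72 and 3.99 CPM in the 5 sorts in the usual order, so that it too was higher in both Flt3- sorts than in both Flt3+ sorts. Trem3, Clec5a and Klrk1 had 0 UMIs in Flt3- Ly6d+ cells, against 12.3, 7.78 and 5.21 CPM in Flt3- Ly6d- HSA- cells. Without both classes that sort held 0 UMIs of Trem3 and 0.360 CPM of Clec5a, while Klrk1 was at 5.22 CPM, none of the 5 cells with several NK markers being in either class. Cd247, the T-cell receptor zeta chain, was 2.08-fold higher in Flt3- Ly6d+ cells (1.65-fold without both classes). Of the cell type markers, Itgax and Il2ra were higher in Flt3- Ly6d+ cells. The granulocyte genes Mpo, Elane, Prtn3, Ctsg, Ms4a3, Cebpe, Cebpa, Csf3r, Hp and Igsf6 were lower, as were the mast cell and basophil genes Mcpt8, Cma1, Hdc and Gata2. These genes also define the 2 classes. Without both classes Elane (0.314), Prtn3 (0.412), Ms4a3 (0.262), Cebpa (0.0698) and Gata2 (0.140) were still at least 2-fold lower. Mpo (0.958), Ctsg (0.644), Csf3r (0.785), Igsf6 (1.05), Mcpt8 (1.27) and Hdc (0.830) were then less than 2-fold apart. Cebpe had a ratio of 3.66, on the other side of 1, and Hp and Cma1 gave no ratio. No 5 CPM filter was applied to these ratios. In Flt3- Ly6d+ cells Cebpe stood at 0.659 CPM, Igsf6 at 0.0942, Ms4a3 at 0.283 and Cebpa at 0.188. The ratios of these genes thus rest on few UMIs, and the direction of Cebpe was not resolved.

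The mean of the 4 gated sorts was set against the control, which holds CD25+ and Bcl11b-expressing cells as well. Of 9206 genes measured, 1.13% were at least 2-fold higher in the gated mean and 1.39% lower. Of the 8 members measured 1 was higher and 2 were lower. Cd7 was 2.05-fold higher (1.96 to 2.15). Gzma and Gzmb had ratios of 0.0569 (0.0454 to 0.0715) and 0.384 (0.326 to 0.452), and they were 17.6-fold and 2.61-fold lower in the gated mean than in the control. Without both classes Gzma was 16.4-fold and Gzmb 2.02-fold lower. The gated mean of Gzma, 1.61 CPM, leaned on the Flt3- Ly6d+ sort at 4.62 CPM, where 1 cell of neither class held 42 of 49 UMIs. Without that cell the sort stood at 0.659 CPM, which would widen the fold. Of 8 granule pathway genes measured 1 was lower, the granule transport gene Rab27a, at 11.03 CPM in the gated mean and 23.5 CPM in the control. Of 5 adaptor receptors measured 4 were higher in the gated mean, Klrd1 3.27-fold, Trem3 3.14-fold, Clec5a 3.50-fold and Fcgr3 2.62-fold. Without both classes these were 3.56-fold, 1.82-fold, 2.13-fold and 2.21-fold higher. Trem3 and Clec5a then stood at no more than 0.181 and 1.27 CPM in any sort, under the 5 CPM needed for a call. Trem3 held 2 UMIs in the control and at most 4 in a gated sort. Of 7 kinases and related chains Cd247 was lower, at 9.80 CPM in the gated mean and 36.2 CPM in the control, and of 8 innate lymphoid regulators Gata3, Ets1 and Tcf7 were lower, at 25.9, 18.0 and 101 CPM in the gated mean and 52.2, 41.6 and 215 CPM in the control. Of the cell type markers, 11 of 12 measured granulocyte genes (Mpo, Elane, Prtn3, Ctsg, Ms4a3, Cebpe, Cebpa, S100a8, S100a9, Hp and Igsf6), Gata2 and Maf were higher in the gated mean. Il17rb, Cd74, H2-Aa and the 6 T cell genes Cd3g, Cd3d, Cd3e, Bcl11b, Thy1 and Il2ra were lower. Without both classes the genes called lower were still at least 2-fold lower. Of those called higher, Prtn3 (2.44), Cebpa (2.32), Igsf6 (2.16), Gata2 (2.92) and Maf (2.32) were still so. The ratios of Mpo, Elane, Ctsg, Ms4a3, S100a8, S100a9 and Hp then ran from 0.940 to 1.78, and that of Cebpe was 0.498. No 5 CPM filter was applied to the ratios without both classes.

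The control sort spans more of early T-cell development, so its cells were split by their own RNA at 3000 UMIs. Cells with neither Il2ra (CD25) nor Bcl11b numbered 1700, cells with Il2ra but no Bcl11b 622, cells with Bcl11b but no Cd3g 590, and cells with both Bcl11b and Cd3g 338. These 4 classes are called stages 1 to 4 here. They rest on RNA seen at that depth and are not sorted stages. Levels below use all UMIs, by which the stages overlap in the genes of the split. From stage 1 to stage 4 Il2ra stood at 71.1, 361, 351 and 330 CPM and Bcl11b at 33.2, 102, 485 and 796 CPM. Cd3g stood at 33.6, 84.9, 33.6 and 2056 CPM. Median UMIs per cell were 15791, 17176, 18162 and 7941.

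Gzma was highest and Gzmb lowest in stage 4. Gzma stood at 12.1, 18.1, 32.9 and 160 CPM from stage 1 to stage 4, and the share of thinned cells with a UMI was 1.18%, 2.73%, 7.12% and 29.0%. Stage 4 was 13.3-fold above stage 1 (11.6 to 15.1). Gzmb stood at 13.1, 11.4, 3.27 and 0.239 CPM, and a single UMI of it was left in the 338 cells of stage 4. In stage 1 the 10 richest cells held 73.6% of the Gzma UMIs, and in stage 4 they held 32.9%. The cells richest in Gzma (87 UMIs) and in Gzmb (147 UMIs) in the whole control were both of the mast cell and basophil class.

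The mast cell and basophil class lay almost wholly in stage 1, with 12, 1, 0 and 0 cells from stage 1 to stage 4, and the summed level of its 8 genes was 36.9, 12.1, 3.27 and 0.478 CPM. The granulocyte class held 42, 1, 2 and 0 cells of the same stages, and its 14 genes summed to 1843, 261, 424 and 60.5 CPM. Without the mast cell and basophil class Gzmb stood at 4.74, 11.5, 3.27 and 0.239 CPM, so that stage 2 was highest. Gzma then stood at 6.19, 18.2, 32.9 and 160 CPM, higher at each step.

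The receptors and adaptors were lowest in stage 4, by different routes. Cd7 stood at 67.6, 42.8, 16.01 and 7.66 CPM from stage 1 to stage 4, lower at each step. Cd160 stood at 33.7, 49.3, 17.4 and 7.18 CPM, with its highest level in cells with Il2ra and no Bcl11b. Tyrobp stood at 406, 383, 146 and 26.3 CPM, and Fcer1g at 86.3, 124, 96.7 and 27.0 CPM (74.8, 124, 95.8 and 27.0 CPM without both classes). In cells with Bcl11b but no Cd3g, Tyrobp was thus at 0.360 (0.342 to 0.379) of its stage 1 level while Fcer1g was at 1.12 (1.04 to 1.20) of its own.

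Nkg7 and the transcription factors followed other orders. Nkg7 stood at 381, 294, 303 and 257 CPM from stage 1 to stage 4, and 42.0% of the thinned stage 4 cells still held it. Zbtb16 stood at 2.92, 5.42, 6.99 and 2.15 CPM, and stage 3 was 2.39-fold above stage 1 (1.74 to 3.29). Nfil3 stood at 4.13, 2.63, 2.12 and 1.44 CPM. Rora stood at 3.39, 2.03, 1.95 and 4.07 CPM, with 17 UMIs in stage 4. Spi1 (PU.1), a myeloid and progenitor regulator that is shut off at T commitment, stood at 163, 122, 63.9 and 29.9 CPM in the same cells.

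**Figure D4:**
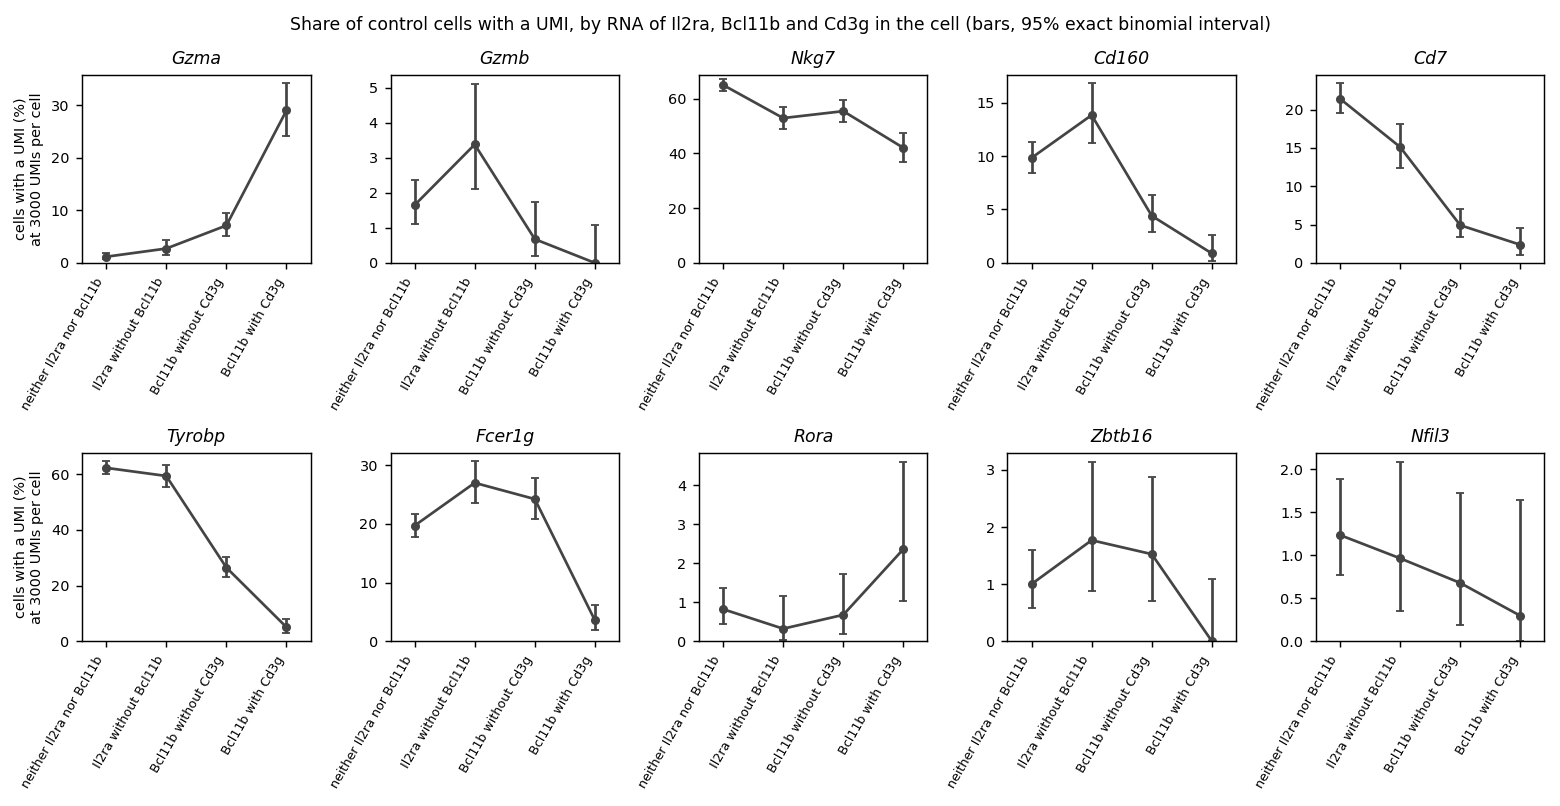
Share of control cells with a UMI of each gene after thinning to 3000 UMIs per cell, by whether RNA of Il2ra, Bcl11b and Cd3g was seen in the cell, with 95% exact binomial intervals. Gzma reaches 29.0% in cells with Bcl11b and Cd3g, where Tyrobp is down to 5.03% and Cd7 to 2.37%.

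How many members a cell carried differed by the Flt3 gate among the gated sorts. Thinned cells held a mean of 2.29 of the 10 members among Flt3- Ly6d+ cells, 2.28 among Flt3- Ly6d- HSA- cells, 1.503 among Flt3+ HSA+ cells, 1.54 among Flt3+ Ly6d- HSA- cells and 1.62 among control cells. At least 3 members were detected in 42.6%, 40.1%, 12.9%, 15.1% and 19.8% of cells in that order. At most 5 members were found in a gated cell and 7 in a control cell.

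Pairs of members were compared with the number of cells that the product of their 2 shares would give. Cd160 and Cd7 were found together in 59 Flt3- Ly6d+ cells (1.36 times the product, 1.04 to 1.76), in 73 Flt3- Ly6d- HSA- cells (1.63 times, 1.28 to 2.05) and in 79 control cells (1.84 times, 1.46 to 2.29). Gzmb and Fcer1g met in 12 Flt3- Ly6d- HSA- cells, 2.30 times the product (1.19 to 4.03), and without the mast cell and basophil class in 8 cells, 2.09 times (0.904 to 4.13). Tyrobp with Fcer1g was at 1.07 times (0.940 to 1.21) in that sort, 1.33 times (1.07 to 1.63) in Flt3+ Ly6d- HSA- cells and 1.24 times (1.12 to 1.37) in the control. Without both classes the value in Flt3+ Ly6d- HSA- cells was 1.17 (0.889 to 1.52).

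In the control, Gzma was found with the receptors and adaptors in fewer cells than the product. It was found with Tyrobp in 25 cells against a product of 87.1 (0.287 times, 0.186 to 0.424), with Cd7 in 8 cells (0.297 times) and with Cd160 in 3 cells (0.195 times). Cd7 and Tyrobp met in 383 control cells, 1.57 times the product (1.42 to 1.74). The control mixes the 4 classes of cells described above, which share library and sort but not their levels of these genes.

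**Figure D5:**
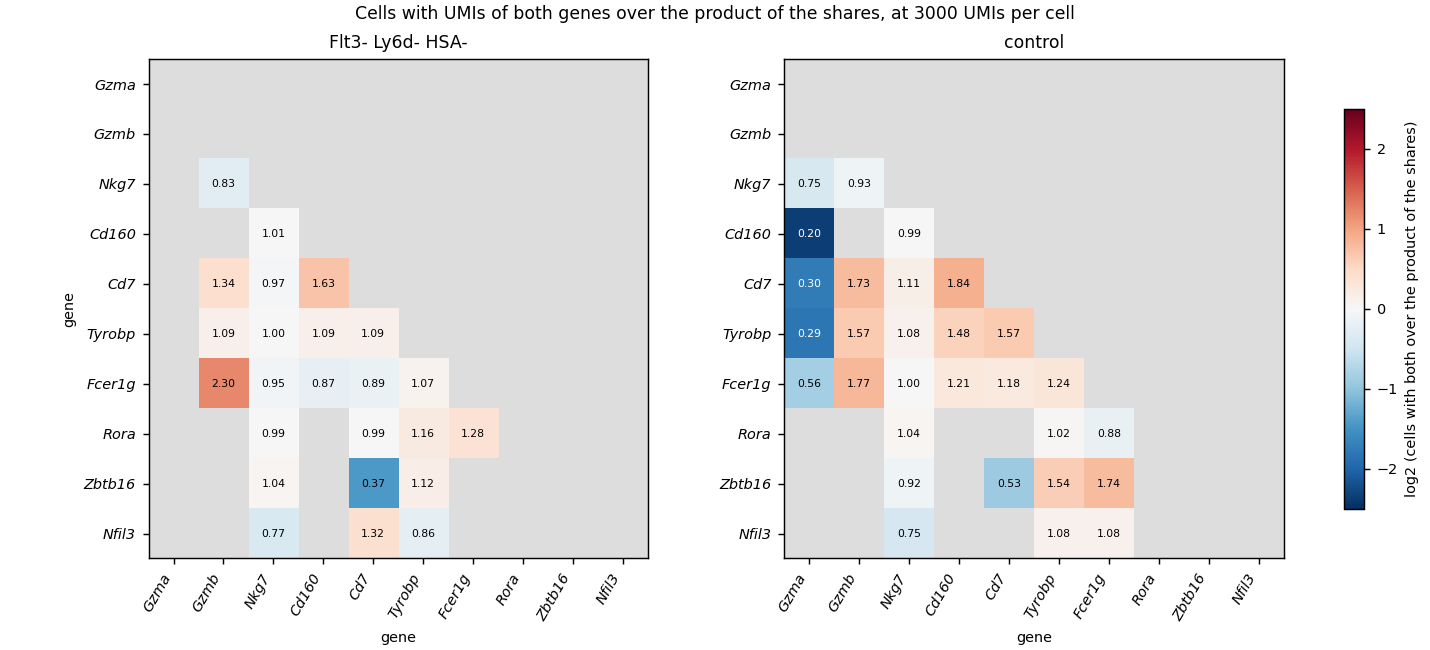
Number of thinned cells with UMIs of both genes of a pair over the product of their shares, in Flt3- Ly6d- HSA- cells and in the control; grey squares are pairs for which the product is under 5 cells, and the upper triangle is not used. Gzma is below 1 with every partner drawn in the control (0.287 with Tyrobp), and Cd160 with Cd7 is above 1 in both sorts (1.63 and 1.84).

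The genes most like each member were sought over 7817 thinned cells of all sorts and 9673 genes, by Pearson correlation of the log count, as a description across cells that share 1 library. Gzma was most like Cd3g (r = 0.33), Cd3e (0.29) and Cd3d (0.28), components of the T-cell receptor complex. Gzmb was most like Gata2 (0.36), Cd63 (0.36) and Mcpt8 (0.29), genes of mast cells and basophils. Over the 7772 cells outside the mast cell and basophil class these 3 values were 0.03, 0.05 and -0.01. Gata2 and Mcpt8 are among the genes that define that class, so part of their fall was set by the definition, and Cd63 is not. Gzma and Cd3g, neither of which defines the class, were at 0.37 over the same cells. Cd7 was most like Tyrobp (0.26) and mt-Co1 (0.20). Tyrobp was most like Rps24 (0.28), Tmsb4x (0.27) and mt-Co1 (0.26), and Fcer1g like Tmsb4x (0.22), genes detected in 99.9% to 100% of these cells. For Nkg7, Cd160, Rora and Nfil3 no gene reached 0.2, and Zbtb16 was seen in too few cells to be tried.

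Cells with several NK markers at once were rare and came from 1 sort. UMIs of at least 3 of 10 NK markers were found in 5 cells, all in the Flt3- Ly6d- HSA- sort (0.415% of its 1205 cells), and 0 of the 6743 other assigned cells did, which allows a share of up to 0.0445%. The richest held 8 of the 10 markers, with 14 UMIs of Klrk1, 8 of Klrd1, 4 of Ncr1 (NKp46) and 5 of Il2rb among 5752 UMIs. Eomes, the T-box factor of NK cells, had 7 UMIs in another of the 5 and 8 UMIs in the whole sort, all in these cells. Kit RNA was present in each of the 5, at 1 to 3 UMIs, and Cd3g and Bcl11b at 0.

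The members differed in those 5 cells. Tyrobp had 6 to 16 UMIs and Fcer1g 5 to 12 UMIs in every one. Gzmb had 0 UMIs in all 5, Gzma had 1 UMI in 1 cell, and Prf1 had 0. A cell with 3 markers held 10 UMIs of Zbtb16 and 8 of Rora, and these were 10 of the 53 Zbtb16 UMIs of its sort. The 5 cells held 58 of the 73 Klrk1 UMIs of the sort (79.5%), and without them the sort had 1.07 CPM of Klrk1. They held 0.556% of its Tyrobp UMIs, 2.16% of its Fcer1g UMIs and 0% of its Gzmb UMIs.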

How the data were processed

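The authors deposited 1 cDNA count matrix (unnormalized UMI counts of genes by cell barcodes) and a table that assigns each barcode to a sort by its hashtag. Reads were processed with Cell Ranger 3.0 against mm10, per the submitters' processing notes; hashtag assignment and cell filters are not described in the labels. In 100% of assigned cells the assigned hashtag was the most abundant. The 345 unassigned barcodes (4.16%) entered no comparison.

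Counts were summed per sort to CPM with exact Poisson intervals; intervals of ratios treat the 2 summed counts as a binomial split (for the gated mean, a log-normal approximation) and shares exact Clopper-Pearson intervals, all at 95% and for counting error only. Cells were thinned to 3000 UMIs (seed 20), which left out 131 cells. Genes were called at 2-fold and 5 CPM, and the procedure was tested on simulated data. All 10 members are described; listed genes at least 2-fold apart in a comparison are named, and other genes were chosen after their values were seen. Members, lists and thresholds were chosen with earlier results of these data known. In all, 11 planned and 4 alternatives added after seeing the data were run (Python 3.11.15, numpy 2.4.6, scipy 1.17.1; scaling factors from edgeR 4.0.16 and DESeq2 1.42.0).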

Additional observations from a re-analysis of the deposited data

Results flagged for a closer look

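The 345 barcodes that the authors assigned to no sort carried 5 of the members above the level of the control, in that the counting intervals did not overlap. By the same rule Gzma (14.8 against 28.3 CPM) and Cd160 (26.1 against 31.8 CPM) were below the control. Of the 5, Nkg7, Cd7, Tyrobp and Rora lay within the range of the 4 gated sorts. Gzmb stood at 14.03 CPM in the unassigned barcodes and 9.88 CPM in the control, and 1 unassigned barcode held 124 of its 151 UMIs. Nkg7 stood at 413 CPM in the unassigned barcodes and 338 CPM in the control. Cd7 stood at 82.2 and 47.9 CPM, and Tyrobp at 389 and 322 CPM, in the same order. Rora stood at 4.74 CPM in the unassigned barcodes and 2.88 CPM in the control, and 1 unassigned barcode held 12 of its 51 UMIs. The median was 29414 UMIs in an unassigned barcode and 16040 in a control cell.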

How the results depend on the processing

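Of 390 single ratios recomputed, 302 moved by less than their counting interval, 88 moved by more and 0 changed sides as called values. Brackets below hold the count over all genes measured. The count of 5 members at least 2-fold higher in Flt3- Ly6d- HSA- than in Flt3+ Ly6d- HSA- cells was 3 with at least 20 CPM (44 of 5697). It was 4 without the mast cell and basophil class (108 of 9218) and without the richest cell of each sort (109 of 9209). It was 6 without the granulocyte class (160 of 9228) and at 1.5-fold (420 of 9210), and 7 with no filter on low values (1484 of 15661). In Flt3+ HSA+ over Flt3+ Ly6d- HSA- cells 1 of 6 members measured was higher at 1.5-fold (186 of 9066). With no filter on low values 1 of 10 was higher (1263 of 15841) and 1 lower (1333 of 15841), shares near those of all genes. In Flt3- Ly6d+ over Flt3- Ly6d- HSA- cells 1 member was higher with equal weight per cell (32 of 9231) and after thinning (100 of 9297). The count was also 1 without the granulocyte class (73 of 9169), without either class (75 of 9175) and with no filter (1122 of 15217). In that comparison 1 member was lower with equal weight per cell (84 of 9231), at 1.5-fold (227 of 9178) and with no filter (1734 of 15217). After thinning 2 were lower (138 of 9297). Against the control, 0 members were higher in the gated mean with equal weight per cell (89 of 9270) and after thinning (104 of 9311). At 1.5-fold 3 were higher (321 of 9206). With at least 20 CPM 1 was lower (59 of 5736), and with no filter 3 were lower (1613 of 17147). Apart from the alternatives' own thresholds and cells left out, the cause was not tested. Scaling by TMM or DESeq2 factors and keeping only clear hashtags left these 8 counts of called members as they were, and scaling moved the median of all genes by -0.05 to 0.02 on the log2 scale. No paired analysis was possible because each population is 1 sort with no replicate number. With 1 sort per population, differences between mice or sorts cannot be told apart from those between populations, and members under 5 CPM rest on few UMIs.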

Other observations

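The control cells with both Bcl11b and Cd3g were divided by whether a Gzma UMI was seen at 3000 UMIs, a division made after the level of Gzma there was known. The 98 cells with Gzma and the 240 cells without it had medians of 7900.5 and 8012 UMIs. Cd3g stood at 2550 CPM in cells with Gzma and 1877 CPM in cells without it, and Ly6d at 1326 and 982 CPM. Kit stood at 19.8 CPM (12.4 to 30.0) in cells with Gzma and 37.8 CPM (31.2 to 45.3) in cells without it, and the proliferation gene Mki67 at 239 and 361 CPM. The gamma delta T cell genes did not go 1 way. Cd163l1 stood at 12.6 CPM (6.90 to 21.2) in cells with Gzma and 3.91 CPM (2.02 to 6.83) in cells without it, on 14 and 12 UMIs. Maf stood at 7.21 CPM (3.11 to 14.2) and 2.93 CPM (1.34 to 5.56), with overlapping intervals. Sox13 stood at 12.6 and 14.3 CPM, and Blk at 5.41 and 6.51 CPM, both lower in cells with Gzma. Prf1 had 0 UMIs in both groups of cells.

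The Flt3- Ly6d- HSA- cell with 25 Rora UMIs held 2 of the 10 NK markers and 1 of the 10 innate lymphoid markers among 19429 UMIs. The control cell richest in Rora, with 18 UMIs among 8671, held 4 of the 10 innate lymphoid markers. Over the sorts, at least 3 innate lymphoid markers were found in 0 Flt3- Ly6d+ cells, 1 Flt3- Ly6d- HSA- cell, 1 Flt3+ HSA+ cell, 0 Flt3+ Ly6d- HSA- cells and 3 control cells.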
